A study of Mus musculus with 148 samples.

Results

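Xist-mediated silencing on the X chromosome was compared at 6 days between undifferentiated and differentiating mouse embryonic stem cells (mESCs). The comparison comprises the 6 undifferentiated samples of the 6-day X chromosome table, with and without induction of Xist RNA in each of 3 lines, set against the 18 differentiating samples of the same lines. The series holds 148 samples in all, and the 24 samples were chosen by line, induction and culture label and not by any measured value. The question is whether a pluripotent cell, held in that state, silences the X as far as a cell that is leaving it.

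X chromosome inactivation equalises X-linked gene dosage between female and male mammals, and the long non-coding Xist RNA that starts it spreads in cis over the chromosome it is transcribed from. The A-repeat at the start of the RNA binds the co-repressor Spen, and the B/C-repeat region further along, called PID, recruits PRC1 through hnRNPK and thereby Polycomb chromatin marks. In the embryo Xist is switched on as cells exit pluripotency, so an inducible promoter makes it possible to express the RNA while cells remain undifferentiated.

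All groups are female mESCs of a 129S by Cast F1 background in which the promoter of *Xist* on the 129S allele was replaced by a doxycycline-responsive TetOn promoter, with its transactivator inserted at the Tigre locus. WT denotes this iXist-ChrX line, XistΔA the same line without the A-repeat and XistΔPID the same line without the B/C-repeat region. The mutants were picked as clones, so effects of a deletion and of a clone cannot be told apart. NoDox samples had 0 hours of doxycycline and Dox samples 144 hours, both taken at day 6. Undifferentiated cells were kept in LIF-containing ES medium on inactivated fibroblast feeders, and differentiating cells in medium from which LIF had been withdrawn. Each line has 1 NoDox and 1 Dox sample in the undifferentiated state and 3 of each in the differentiating state. A general note on growth in the labels gives a shorter induction for all samples, and the titles and time course labels were followed instead.

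The guide RNAs that the study lists for these alleles show where the genome was targeted, and each is printed from 5′ to 3′ with the PAM in capitals.
Xist_TRE guide 1: taactgatccgcggcgctgaAGG
Xist_TRE guide 2: gcacgcctttaactgatccgCGG
Xist ΔA guide: gatcagttaaaggcgtgcaaCGG
Xist ΔPID guide: ttgaggttctataccagttcAGG
All 4 matched the mouse genome (GRCm38.p6) at 1 place. The promoter guides matched X:103483245-103483264 and X:103483236-103483255 on the plus strand, and the ΔA guide X:103483234-103483253 on the minus strand. Their middles lie at positions -21, -12 and -10 relative to the start of *Xist*, which RefSeq places on the minus strand from 103483233 to 103460373. The ΔPID guide matched X:103480607-103480626 on the minus strand, in exon 1 and 2617 bases past the start.

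Chromatin-associated RNA was sequenced (ChrRNA-seq), and the deposited value of each gene is the allelic ratio Xi/(Xi + Xa), the fraction of allele-assigned reads from the 129S chromosome that carries inducible *Xist*. A ratio near 0.5 means equal output of both alleles and a ratio near 0 means silencing of the 129S allele. Ratios were available for 258 genes on X between 6047507 and 103484957 (mm10), with 0 missing values. The authors kept genes above a minimum of SNP-covering reads, but read numbers are absent from this table, so the depth is unknown and single ratios are given without an interval. The spread of the differentiating replicates sets their precision. The table holds no autosomal gene, so the culture labels could not be checked against pluripotency or lineage markers. In these bulk samples, fewer cells with Xist RNA and weaker silencing per cell cannot be told apart.

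Without induction, both alleles were about equally active in either culture. The median NoDox ratio of the undifferentiated sample was 0.514 in WT, 0.519 in XistΔA and 0.510 in XistΔPID. The differentiating samples gave 0.519, 0.511 and 0.509 in WT, 0.519, 0.519 and 0.521 in XistΔA, and 0.517, 0.508 and 0.511 in XistΔPID. Each undifferentiated value lay inside the range of its differentiating replicates.

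After 144 hours of doxycycline, undifferentiated WT cells had silenced most genes of the measured region, XistΔPID cells were intermediate and XistΔA cells had barely moved. The median Dox ratio of the undifferentiated sample was 0.0873 in WT, against 0.111, 0.0880 and 0.0784 in the differentiating samples (mean 0.0925 ± 0.0168, SD, n = 3). In XistΔPID it was 0.262, against 0.284, 0.224 and 0.236 (0.248 ± 0.0321, SD, n = 3). Both values fell within the differentiating range, in which replicate 1 was the least silenced in both lines. In XistΔA the undifferentiated ratio of 0.509 lay just outside the differentiating range of 0.513 to 0.515.

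Averaged over lines, the undifferentiated minus differentiating difference in the sample median was -0.000591 without Dox (two-sided exact permutation of culture within line, p = 0.875, 64 arrangements, smallest possible p 0.0156) and 0.00108 with Dox (exact p = 0.938). For silencing, the Dox minus NoDox difference, it was 0.00167 (exact p = 0.9, 4096 arrangements, smallest possible 0.000244). By line the silencing difference was -0.00583 in WT, -0.00463 in XistΔA and 0.0155 in XistΔPID, each estimated from 1 undifferentiated pair. The signs of these differences changed with the replicates or lines included. With replicate 1 alone as the differentiating sample of each kind, the Dox difference was -0.0174 and the silencing difference -0.0133. In the table, replicate 1 is named in the same form as the undifferentiated samples and unlike replicates 2 and 3, and the labels do not say whether it shares a starting culture with them, so its part in these values was not tested.

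**Figure D1:**
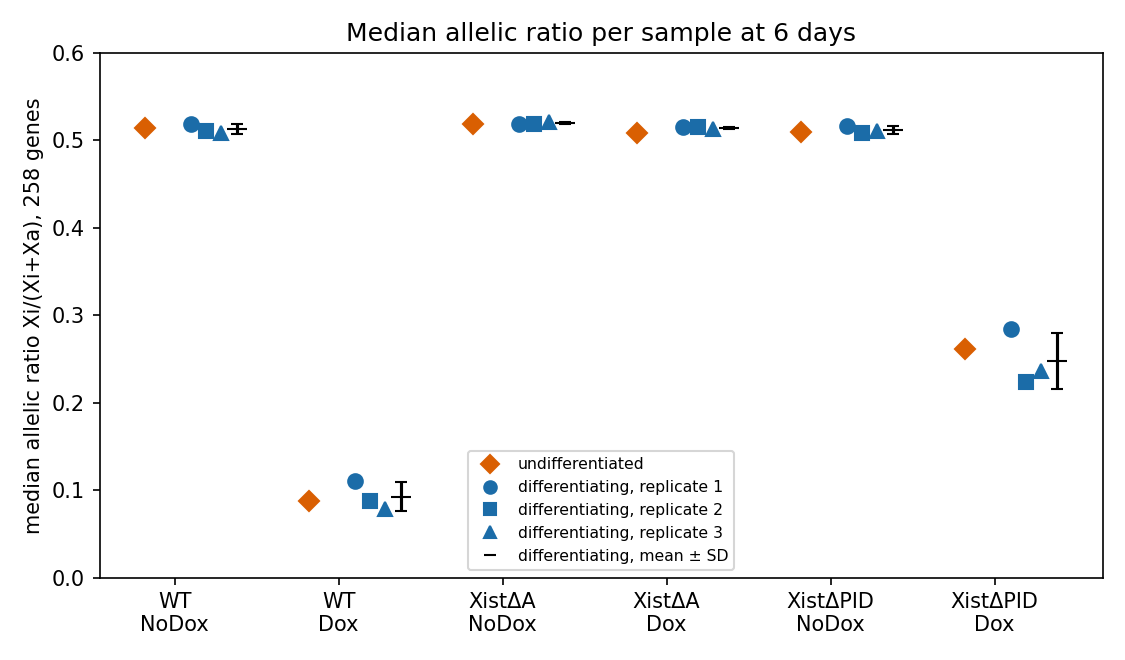
Median allelic ratio, Xi/(Xi + Xa), over 258 genes in each of the 24 samples by line and induction; orange diamonds are undifferentiated samples, blue symbols the differentiating replicates, and black bars their mean ± SD (n = 3). The undifferentiated WT Dox sample at 0.0873 lies among its differentiating replicates, as does the XistΔPID Dox sample at 0.262.

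In undifferentiated WT cells, induction of Xist RNA lowered the ratio of genes all along the measured region. By limma, with the variance taken from the differentiating replicates because each undifferentiated group is a single sample, 249 of 258 genes (96.5%) fell at an adjusted p under 0.05 and 0 rose (also 0 at an unadjusted p under 0.05). The median difference was -0.407. It was -0.398, -0.412 and -0.420 when the mean of the 3 differentiating NoDox samples was subtracted from each differentiating Dox sample. The silencing classes and silencing differences given below by differentiating replicate use the same mean. The tests within undifferentiated cells were added after the data had been seen. They rest on the assumption that a lone sample varies like the replicates of the other culture.

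Of the 10 largest passing drops in undifferentiated WT cells, the first was at *Il1rapl1*, which encodes a synaptic adhesion protein and went from 0.848 to 0.0661 (difference -0.782, SE 0.206, adjusted p = 0.00212). *C430049B03Rik* went from 0.796 to 0.0441 (-0.752, SE 0.0795, adjusted p = 3.71e-07). *Gabra3*, a subunit of the GABA-A receptor, went from 0.646 to 0.0286 (-0.618, SE 0.127, adjusted p = 0.000286). The remaining 7 of the 10 genes with the largest passing estimates were *Pja1*, *Rab33a*, *Mir669m-2*, *Praf2*, *Prrg3*, *Zc3h12b* and *6330419J24Rik*, with estimates from -0.618 to -0.582. *Rab33a*, which encodes a small GTPase of the Rab family, reached a listed ratio of 0 in the undifferentiated Dox sample and in 2 of the 3 differentiating ones.

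The 9 genes that were not called in undifferentiated WT cells fall into 3 kinds, named here after their values were seen. *Xist*, *C330007P06Rik* and *Frmd7* were read almost wholly from a single allele with and without Dox. Their NoDox ratios were 0.981, 0.999 and 0.00562, and their Dox ratios 0.999, 0.997 and 0.0185. *Slc25a5*, the mitochondrial ADP/ATP carrier, had a ratio of 0.242 without and 0.269 with Dox, with a wide spread between replicates (SE 0.248). The others, *Cybb*, *Suv39h1*, *Mcts1*, *Nap1l2* and *Tsix*, had lower Dox than NoDox ratios but likewise a wide spread. *Suv39h1*, an H3K9 methyltransferase, went from 0.475 to 0.278 (-0.197, SE 0.106, adjusted p = 0.0868), and its differentiating Dox samples read 0.472, 0.209 and 0.195.

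Expression from the 129S allele persisted at some genes despite induction. In undifferentiated WT cells 34 genes kept a Dox ratio above 0.2 and 116 above 0.1, against 45, 31 and 17 genes above 0.2 in the differentiating replicates. Of the 34 genes, 10 were above 0.2 in all 3 differentiating WT Dox samples and 1 in none of them. Those 10 were *Xist*, *C330007P06Rik*, *Dynlt3*, *Kdm6a*, *Utp14a*, *Eif2s3x*, *Rpl10*, *Slc25a5*, *Nono* and *Wdr44*. The gene above 0.2 in none was *Eras*, which encodes a Ras protein of embryonic stem cells and read 0.235 in undifferentiated cells and 0.130 to 0.143 in differentiating ones. Its NoDox ratio was also higher, 0.51 against 0.257, 0.479 and 0.381, and its silencing difference in WT had the sign of stronger silencing in undifferentiated cells (-0.0408, SE 0.102, adjusted p = 1). These genes were named after their values were seen.

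By the limits of -0.05 and -0.2 on the Dox minus NoDox difference that divide weak or no, low and high silencing, undifferentiated WT cells had 4 weak, 8 low and 246 high genes. The differentiating replicates gave 242, 247 and 250 high genes, and their mean 4 weak, 6 low and 248 high. The same 4 genes were weak in the undifferentiated pair and in that mean, namely *Frmd7*, *Xist*, *C330007P06Rik* and *Slc25a5*, and 3 were low in both. Those 3 were *Kdm6a*, an H3K27 demethylase, *Eif2s3x*, a subunit of the translation initiation factor that delivers the initiator tRNA, and *Dynlt3*, a dynein light chain. *Kdm6a* read 0.385 with Dox in the undifferentiated sample and 0.435, 0.356 and 0.347 in the differentiating ones, so the undifferentiated value sat among the replicates. *Eif2s3x* read 0.326 against 0.293, 0.232 and 0.238, above all 3 replicates, but its NoDox ratio of 0.501 was also above the differentiating 0.468, 0.419 and 0.449.

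Undifferentiated XistΔA cells showed almost no silencing after 6 days of induction. By limma 0 of 258 genes (0%) were called, while 12 had an unadjusted p under 0.05 (11 lower with Dox, 1 higher). The median difference was -0.00957, and 213 genes were weak or not silenced, 41 low and 4 high. The 4 high genes were *Arhgef6*, *Srpx*, *Mamld1* and *Gabre*, named after their values were seen, and the differentiating replicates held 2, 1 and 1 high genes.

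The smallest p in undifferentiated XistΔA belonged to *Tmem28*, a predicted membrane protein whose gene lies 3.65 Mb from the *Xist* start. Its ratio was 0.503 without and 0.317 with Dox (-0.186, SE 0.0413, 95% interval -0.275 to -0.0976, adjusted p = 0.123). The differentiating XistΔA samples read 0.516, 0.418 and 0.491 without Dox and 0.296, 0.368 and 0.299 with it, so every Dox sample of either culture lay below every NoDox sample. *Heph*, which encodes the ferroxidase hephaestin and lies 6.97 Mb from *Xist*, read 0.415 without and 0.280 with Dox, and 0.375, 0.375 and 0.395 against 0.215, 0.196 and 0.204 in differentiating samples. *Tmem28* and *Heph* were named with their differentiating values in this line already known. Among genes with a smaller p than *Heph* by limma, *Zfp449* had a lower ratio with Dox (-0.16) and *Gripap1* a higher one (0.0912). Neither passed. *Gabre*, a GABA-A receptor subunit, read 0.628 and 0.4 (-0.228, SE 0.0612, adjusted p = 0.155). Its differentiating Dox samples, at 0.523, 0.497 and 0.500, all lay above the undifferentiated one. In a fit without replicate 2, *Tmem28* and *Xist* passed (adjusted p = 0.0393 for both).

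Undifferentiated XistΔPID cells silenced many genes, but only in part. By limma 215 of 258 genes (83.3%) fell, 0 rose (0 at an unadjusted p under 0.05), and the median difference was -0.235. The classes held 13 weak, 84 low and 161 high genes. Replicate 1 of the differentiating samples held 13, 89 and 156, replicate 2 held 7, 55 and 196, and replicate 3 held 9, 61 and 188. With Dox, 192 genes kept a ratio above 0.2, against 190, 151 and 162 in the differentiating replicates, so the undifferentiated sample was nearest to replicate 1.

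*Firre*, a long non-coding RNA gene that shapes nuclear organisation, had the largest passing drop in undifferentiated XistΔPID cells. Its ratio went from 0.647 to 0.194 (-0.453, SE 0.0207, adjusted p = 5.91e-10), and the differentiating Dox samples read 0.170, 0.134 and 0.148. *Smarca1*, an ISWI chromatin remodeller, followed with 0.514 and 0.0659 (-0.448, SE 0.0572, adjusted p = 7.02e-06). Its Dox ratio was close to the 0.0641 and 0.0714 of differentiating replicates 1 and 2 and above the 0.0161 of replicate 3. Among the genes not called were *Kdm6a*, at 0.548 without and 0.514 with Dox, and *Suv39h1*, at 0.512 and 0.506. In WT *Kdm6a* fell by 0.167 (adjusted p = 0.000159), and the difference between the lines passed (0.133, SE 0.0452, adjusted p = 0.0266).

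The lines themselves differed in silencing while undifferentiated. Compared with WT, silencing was weaker in XistΔA at 239 of 258 genes (92.6%) and in XistΔPID at 127 genes (49.2%), and stronger at 0 genes in either line by limma (0 at an unadjusted p under 0.05). The median difference was 0.382 for XistΔA and 0.166 for XistΔPID. Both comparisons use the same WT pair. For XistΔPID the count was 86 without replicate 3 and 167 without replicate 1.

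Genes with a large XistΔPID deficit include *6330419J24Rik* (0.490, SE 0.103, adjusted p = 0.00168) and *F8*, the gene for coagulation factor VIII. *F8* read 0.116 with Dox in undifferentiated WT and 0.334 in XistΔPID, from NoDox ratios of 0.685 and 0.549 (difference in silencing 0.355, SE 0.0701, adjusted p = 0.00121). *Maob*, which encodes monoamine oxidase B, read 0.0833 in WT and 0.511 in XistΔPID (0.411, SE 0.142, adjusted p = 0.0278). That call was lost without replicate 3 (adjusted p = 0.0894). In differentiating XistΔPID cells the Dox ratios of *Maob* were 0.348, 0.212 and 0.350, all lower than in the undifferentiated sample.

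Known escape genes lost part of their 129S expression in undifferentiated cells and kept part of it. Among 11 measured of 17 genes known from other work to escape X inactivation, all 11 fell in undifferentiated WT cells, where 249 of 258 genes did. Their median Dox ratio was 0.206, against 0.0873 for all genes, and 6 of them stayed above 0.2. *Firre* (0.660 to 0.122), *Shroom4*, an actin regulator (0.557 to 0.122), and *Igbp1*, a phosphatase-binding protein (0.537 to 0.15), had the largest drops. *Ddx3x*, an RNA helicase, stayed at 0.255 and *Utp14a*, a factor in ribosome assembly, at 0.341. In XistΔPID 10 of the 11 fell beside 215 of 258 genes (83.3%), the list's median Dox ratio was 0.372 (all genes 0.262), and *Utp14a* read 0.536.

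Most chromatin and transcription regulators were silenced in both lines, as most genes were. Of 23 measured of 29, 22 fell in undifferentiated WT cells and 21 in XistΔPID, beside 96.5% and 83.3% of all genes. Their median Dox ratios were 0.127 and 0.295, beside 0.0873 and 0.262 for all genes. *Bcorl1*, a transcriptional corepressor, went from 0.639 to 0.0745 in WT, *Hdac8*, a histone deacetylase, from 0.551 to 0.0575, and *Stag2*, a cohesin subunit, from 0.569 to 0.0806. *Stag2* reached 0.254 in XistΔPID. *Nono*, a paraspeckle protein, read 0.266 in WT, above its differentiating 0.226, 0.221 and 0.224, and 0.358 in XistΔPID, above 0.294, 0.284 and 0.251. Its NoDox ratios of 0.598 and 0.615 were level with or above the differentiating highest of 0.598 and 0.593, and the silencing difference over the 3 lines was 0.0092 (SE 0.0182, adjusted p = 1).

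Genes of pluripotency and X dosage include factors that help to keep stem cells undifferentiated. All 13 measured of 22 fell in WT (96.5% of all genes) and 12 in XistΔPID (83.3% of all genes), with median Dox ratios of 0.0616 and 0.247 beside 0.0873 and 0.262 for all genes. The WT value was just below the differentiating range of 0.0643 to 0.0905. Its median Dox minus NoDox difference of -0.425 was also outside the differentiating -0.412 to -0.401, on the stronger side. That range shares the mean differentiating NoDox ratio and so leaves out the spread between NoDox samples. The list's WT NoDox median of 0.53 lay above the differentiating 0.492 to 0.51. In XistΔPID the median difference of -0.25 lay inside the differentiating -0.285 to -0.234. *Gpc3*, a glypican, was among the most fully silenced genes, at 0.483 without and 0.00896 with Dox in undifferentiated WT cells. *Nr0b1*, a nuclear receptor of the pluripotency network, read 0.0364 with Dox in undifferentiated WT cells against 0.0127, 0.00893 and 0.0556. In XistΔPID it read 0.174, above the differentiating 0.0840, 0.0619 and 0.0805. *Klhl13*, a Cullin adaptor, read 0.0568 in WT and 0.140 in XistΔPID, both inside the differentiating range. Pooled over lines, the list's median silencing difference between cultures was 0.00800, against 0.00627 for all genes, with 0 called.

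Neuronal and differentiation genes had the lowest median Dox ratio of the 4 lists in undifferentiated WT cells, 0.0476, against 0.0569 to 0.0864 in the differentiating samples, but their median difference of -0.466 lay inside the differentiating range of -0.475 to -0.431. All 29 measured of 40 fell in WT (96.5% of all genes) and 26 in XistΔPID (83.3% of all genes), where the median Dox ratio was 0.228, inside the differentiating range of 0.157 to 0.247, beside 0.262 for all genes. Beside *Il1rapl1* and *Gabra3*, *Efhc2* (0.803 to 0.243) and *Slc6a8*, the creatine transporter (0.648 to 0.0993), had the largest drops in WT. In XistΔPID *Zc4h2* reached 0.152 and *Dlg3*, a synaptic scaffold protein, 0.146. Differences between lists were described and not tested.

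Silencing in undifferentiated cells varied along the chromosome. By distance from the start of *Xist*, the 86 nearest genes (0.025 to 29.2 Mb) had a median Dox minus NoDox difference of -0.411 in undifferentiated WT cells, the 85 genes in the middle (29.2 to 61.6 Mb) -0.448 and the 86 farthest genes (61.9 to 97.4 Mb) -0.355. The differentiating WT samples gave -0.446 to -0.413, -0.433 to -0.418 and -0.395 to -0.361. These ranges share the mean differentiating NoDox ratio and so leave out the spread between NoDox samples, while the undifferentiated value rests on a single NoDox sample. The undifferentiated difference lay just outside each range, weaker for the nearest and farthest genes and stronger for those in the middle. Because of the unlike baselines, no difference between cultures is read from these gaps. The undifferentiated Dox ratios of 0.0692, 0.063 and 0.124 all lay inside the differentiating ranges of 0.0564 to 0.092, 0.0621 to 0.0903 and 0.113 to 0.15. In XistΔPID the undifferentiated values were -0.266, -0.258 and -0.195, against -0.311 to -0.242, -0.288 to -0.251 and -0.264 to -0.198, the first 2 inside their range. In undifferentiated cells of WT and XistΔPID, the farthest genes were the least silenced. *Xist* was left out of this division. By RPKM, an expression value deposited for a sample that the table does not name, the 86 genes with the lowest values read -0.448 in WT and -0.290 in XistΔPID and the 86 with the highest -0.375 and -0.221. These are descriptions across genes, which are not independent replicates.

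Allelic balance before induction was not called different between the cultures at any gene. By limma with lines as blocks, 0 of 258 genes (0%) were called for the NoDox ratio, and 34 had an unadjusted p under 0.05 (14 higher in undifferentiated cells, 20 lower). The smallest adjusted p was 0.149. The genes with the smallest p in each direction are given as not passing.

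*Il1rapl1* had the largest of these differences, with less 129S signal in undifferentiated cells of all 3 lines. The undifferentiated NoDox ratio was 0.848 in WT against 0.973, 0.910 and 0.928, and 0.843 in XistΔA against 0.99, 0.918 and 0.906. In XistΔPID it was 0.614 against 0.821, 0.773 and 0.706. Every undifferentiated value lay below every differentiating value of its line (estimate -0.112, SE 0.0265, 95% interval -0.171 to -0.0527, adjusted p = 0.149). The gene is listed with an RPKM of 0, and what depth contributed to its ratio was not tested.

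*Fhl1*, which encodes a LIM-domain protein of muscle, had the opposite sign. Its undifferentiated NoDox ratios were 0.605, 0.616 and 0.597 in WT, XistΔA and XistΔPID, and the highest differentiating value in the same lines was 0.574, 0.576 and 0.558 (0.0526, SE 0.0107, adjusted p = 0.149). *Dynlt3* was likewise above all replicates in each line, with 0.895, 0.903 and 0.931 (0.0529, SE 0.0132, adjusted p = 0.149). *Nkap*, which encodes a nuclear regulator of transcription, was lower, with 0.472, 0.481 and 0.502 (-0.0439, SE 0.0110, adjusted p = 0.149). *Atp2b3*, a calcium pump of the plasma membrane, read 0.357, 0.393 and 0.362 (-0.0721, SE 0.0197, adjusted p = 0.179).

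*Zfp449*, a zinc finger gene, did not separate in WT, at 0.554 against 0.556, 0.558 and 0.535. It did in XistΔA, at 0.684 against 0.569, 0.592 and 0.564, and in XistΔPID, at 0.572 against 0.494, 0.493 and 0.494 (0.0641, SE 0.0162, adjusted p = 0.149). *Zfp449* passed when WT was left out (0.0938, adjusted p = 0.0372). It also passed when each culture of each line was fitted as a group of its own (0.0641). For 210 of 258 genes the 95% interval of the culture difference lay within 0.1 of 0, and for 251 within 0.2.

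**Figure D2:**
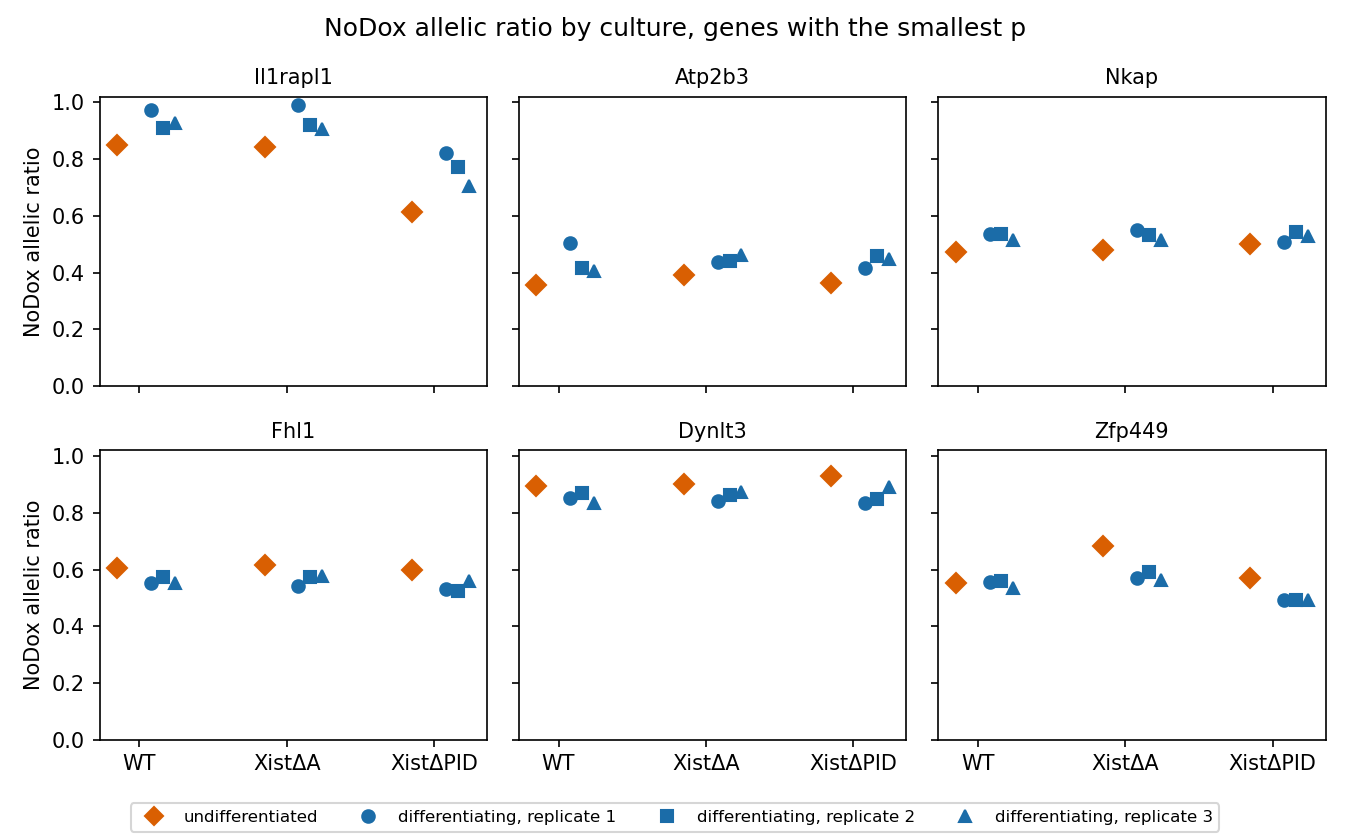
NoDox allelic ratio in the undifferentiated sample (orange diamond) and the 3 differentiating replicates (blue) of each line, for the 3 genes with the smallest p in each direction. The undifferentiated *Il1rapl1* ratios of 0.848, 0.843 and 0.614 lie below, and the *Fhl1* ratios of 0.605, 0.616 and 0.597 above, all replicates of their lines, and none of the 6 genes passed the adjusted threshold.

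Silencing itself, gene by gene, was not called different between the cultures. By limma over the 3 lines, 0 of 258 genes (0%) were called and 3 had an unadjusted p under 0.05, all with less silencing in undifferentiated cells. The median estimate was 0.00627, and the 95% interval lay within 0.1 of 0 for 171 genes and within 0.2 for 241. For the remaining genes the interval passed 0.2 on at least 1 side.

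The 3 genes were *Gripap1*, *Fam50a* and *Maob*. *Maob* had the largest estimate (0.152, SE 0.0663, adjusted p = 1). Its Dox minus NoDox difference in undifferentiated cells was -0.475 in WT, 0.131 in XistΔA and -0.0644 in XistΔPID, against means of -0.499, -0.0306 and -0.335 in differentiating cells. *Gripap1*, which encodes a partner of the synaptic protein GRIP1, read 0.0436 (SE 0.0183, adjusted p = 1) and *Fam50a*, a nuclear protein gene, 0.0766 (SE 0.0325, adjusted p = 1). In the other direction *Zfp449* (-0.0654), *Plp2* (-0.0623) and *Slc25a14* (-0.0317) had the smallest p, with an adjusted p of 1 each.

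**Figure D3:**
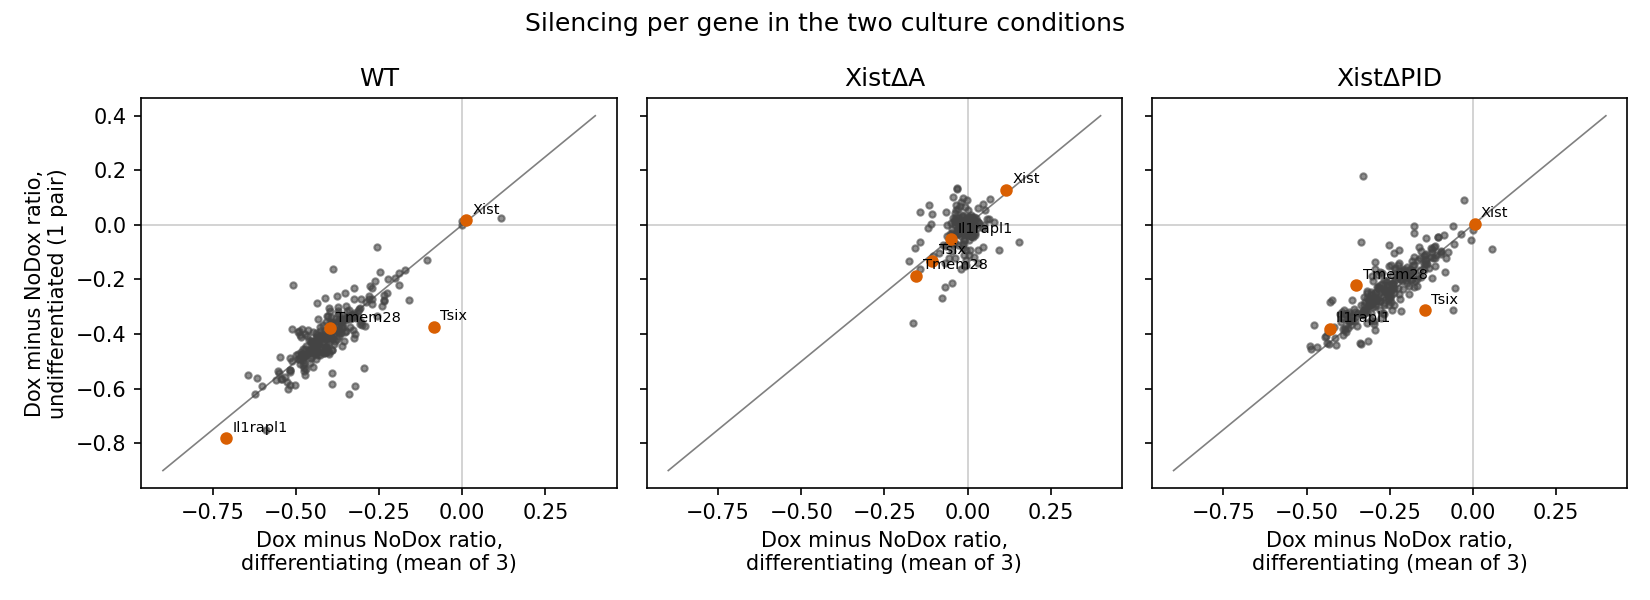
Dox minus NoDox allelic ratio of each of 258 genes in undifferentiated cells (1 pair, vertical) against differentiating cells (mean of 3, horizontal) for each line, with the line of equality. The genes cluster along that line around medians of -0.407 in WT and -0.235 in XistΔPID on the vertical axis and near 0 in XistΔA, and *Tsix* lies below it in WT.

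Within WT, silencing by culture was called at 0 of 258 genes (0%) by limma, with 3 at an unadjusted p under 0.05. These 3 were *Kcnd1*, *Fundc1* and *6330419J24Rik*. *Kcnd1*, a voltage-gated potassium channel gene, had the largest of these estimates (0.287, SE 0.104, adjusted p = 1). Its undifferentiated NoDox ratio was 0.316, below the differentiating 0.605, 0.604 and 0.482, while its Dox ratio of 0.0952 was just above 0.0857, 0.0577 and 0.0238. *Fundc1*, a mitophagy receptor, had a Dox ratio of 0.263 against 0.237, 0.182 and 0.113 (0.153, SE 0.0524, adjusted p = 1). *6330419J24Rik* pointed the other way, with a Dox ratio of 0.1 against 0.148, 0.165 and 0.189 (-0.191, SE 0.0837, adjusted p = 1). *Msn*, which encodes moesin, a link between membrane and actin, had an unadjusted p of 0.0549 by limma, with a Dox ratio of 0.0153 against 0.124, 0.0807 and 0.0591 (-0.0690, SE 0.0330, adjusted p = 1). On the logit scale *Msn* passed (adjusted p = 0.00659).

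Within XistΔA 0 of 258 genes (0%) were called by limma and 8 had an unadjusted p under 0.05. Most of those 8 had more silencing in undifferentiated cells. Over all genes 125 estimates were above 0, toward less silencing, and 133 below, with a median of -0.000488. *Gripap1* had the smallest p among the genes with less silencing in undifferentiated cells (0.0917, SE 0.0315).

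Within XistΔPID the estimates leaned toward less silencing in undifferentiated cells, at 180 of 258 genes, with a median of 0.0210. Again 0 of 258 genes (0%) were called by limma, and 6 had an unadjusted p under 0.05, all in that direction. *Slc9a7*, a sodium/proton exchanger, read 0.305 with Dox against 0.236, 0.207 and 0.229 (0.0981, SE 0.0308, adjusted p = 0.999). *Zmym3*, a zinc finger gene, read 0.231 against 0.118, 0.160 and 0.154 (0.147, SE 0.0494, adjusted p = 0.999). *Tmem28* read 0.196 against 0.111, 0.0698 and 0.0645 (0.128, SE 0.0477, adjusted p = 0.999). The differentiating replicates of this line were themselves apart, and the undifferentiated median difference of -0.235 lay between the -0.231 of replicate 1 and the -0.282 and -0.268 of the others.

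The culture difference was also compared between lines. By limma 0 of 258 genes (0%) were called for XistΔA against WT and 0 (0%) for XistΔPID against WT, with 6 at an unadjusted p under 0.05 in each. Of those 6, 1 estimate was above and 5 below 0 for XistΔA, and 4 above and 2 below for XistΔPID. They include *Nap1l2*, a nucleosome assembly protein gene, for XistΔA (-0.319, SE 0.134, adjusted p = 1), and *6330419J24Rik* (0.321, SE 0.118, adjusted p = 0.986) and *Mcts1* (-0.480, SE 0.195, adjusted p = 0.986) for XistΔPID. The median 95% interval reached 0.159 to either side of its estimate here, against 0.112 within a line and 0.0602 over the 3 lines.

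*Tsix*, the antisense gene that represses *Xist*, varied more between replicates than between cultures. With Dox it read 0.15 in undifferentiated WT cells and 0.0987, 0.353 and 0.826 in the differentiating samples. In XistΔPID it read 0.228 against 0.209, 0.690 and 0.208, and in XistΔA 0.435 against 0.404, 0.420 and 0.496. Without Dox the ratios stayed between 0.483 and 0.573 in all 12 samples of both cultures. The estimate over the 3 lines was -0.161 (SE 0.151, 95% interval -0.476 to 0.155, adjusted p = 1).

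*Xist* itself was read mostly from the 129S allele in every sample, at 0.999 with Dox in the undifferentiated samples of all 3 lines. Without Dox the undifferentiated ratio was 0.981 in WT, 0.994 in XistΔPID and 0.870 in XistΔA, and XistΔA was also the line with the lowest differentiating value, 0.738 in replicate 2 beside 0.945 and 0.950. A ratio carries no information on the amount of Xist RNA.

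*Il1rapl1* shows how far differentiating replicates could part. With Dox it read 0.0661 in undifferentiated WT cells and 0.0824 and 0.0569 in differentiating replicates 2 and 3, but 0.541 in replicate 1. In XistΔPID it read 0.234, and 0.160 and 0.227 in replicates 2 and 3, but 0.619 in replicate 1. *Suv39h1* and *Efhc2* had their highest WT Dox ratio in the same replicate, at 0.472 and 0.496.

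Over all genes, undifferentiated Dox samples were no farther from the differentiating ones than these were from each other. In WT with Dox, the standard deviation over genes of the difference between an undifferentiated and a differentiating sample ran from 0.0438 to 0.0653, and between differentiating samples from 0.0544 to 0.0878. In XistΔA the same values were 0.0484 to 0.0657 and 0.0594 to 0.0754, and in XistΔPID 0.0517 to 0.0694 and 0.0603 to 0.0806. In XistΔPID with Dox, 81 genes were above the range of the 3 differentiating replicates and 27 below it, while in WT 55 were above and 50 below and in XistΔA 48 were above and 71 below.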

How the data were processed

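Per the labels and the authors' methods, reads were aligned with STAR 2.4.2a after rRNA removal with Bowtie2 2.3.2, assigned to alleles and counted with featureCounts. The authors deposited the allelic ratio Xi/(Xi + Xa) as a fraction and an RPKM. Of the 6-day table, 24 samples and 258 genes were used. Samples whose labels conflict (2) and the other tables were left out. Medians were compared by exact two-sided permutation of culture within line. Genes were fitted with limma 3.58.1 in R 4.3.3 (lmFit, eBayes, Benjamini-Hochberg over 258 genes, adjusted p under 0.05), lines as blocks for pooled comparisons and 12 group means otherwise, and tested on simulated data. Named genes come mainly from the 10 largest passing estimates, otherwise the 3 smallest p per direction, with *Xist*, *Tsix* and list members. Not every such gene is given, and some others, such as *Heph*, were picked with their values known. Members and lists were chosen with earlier results of these data known. Alternatives comprised the logit, filters on NoDox ratio and RPKM, and leaving out replicates or lines. Guides were located in GRCm38.p6 with Python 3.11.15. The values of some genes are not reported here.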

Additional observations from a re-analysis of the deposited data

Results flagged for a closer look

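The effect of Dox in undifferentiated cells differed between lines by limma's test of the difference itself. Against WT, silencing was weaker at 239 of 258 genes in XistΔA and at 127 in XistΔPID, each with 1 undifferentiated pair a line. Among genes that passed, the largest differences were at *C430049B03Rik* in XistΔA (0.763, SE 0.112, adjusted p = 1.91e-05) and at *Mir669m-2* in XistΔPID (0.545, SE 0.102, adjusted p = 0.000925).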

How the results depend on the processing

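The differences in sample medians changed sign under some settings. Leaving out a replicate gave -0.00178 to 0.00116 without Dox, -0.00362 to 0.0103 with Dox and -0.00232 to 0.00917 for silencing. With differentiating replicate 1 alone the Dox and silencing differences were -0.0174 and -0.0133, and without XistΔPID they were -0.00527 and -0.00523. For the NoDox ratio, limma called 1 gene without WT and 1 with group means (*Zfp449*), and for silencing in WT 1 on the logit scale (*Msn*). In undifferentiated WT, 165 genes were called without the 86 genes of lowest RPKM, when 172 were tested. In undifferentiated XistΔA, 0 to 2 were called without a replicate and 1 with replicate numbers as blocks (*Arhgef6*, adjusted p = 0.0118), although same-number NoDox and Dox samples correlated over 0.1 in only 5 of 9 pairs. The causes of these changes were not tested, except that fewer genes were tested without the genes of low RPKM. Of the single named genes, 12 values lost their call, 9 gained one and 2056 kept their side of the threshold. The unknown depth prevents a filter on read number.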
